A study of Mus musculus with 6 samples.

Results

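The interferon regulatory factors (IRFs) are a family of transcription factors that share a DNA-binding domain, and 8 of their genes are described here: Irf1, Irf2, Irf3, Irf4, Irf5, Irf7, Irf8 and Irf9. They were chosen by family membership and found by symbol among the 25044 genes of the count table. Earlier results of these data were known when they and the gene lists described below were chosen. All 8 had enough counts to be tested. The cells were peritoneal macrophages of wild-type C57BL/6 mice aged 8 weeks, collected from the peritoneum 3 days after thioglycollate, which irritates the cavity and recruits monocytes that become macrophages there. Cells that stuck to the dish within 1 h were kept in culture for 24 h. One group was then given trametinib at 100 nM, which blocks the kinases MEK1 and MEK2 upstream of ERK, and the other group vehicle (DMSO). LPS, the bacterial ligand of TLR4, was added to both groups 2 h later at 100 ng/ml for 12 h. Each group had 3 libraries of RNA depleted of ribosomal RNA, and the study used 3 mice. No culture without LPS was included, so the values compare trametinib with vehicle in LPS-treated cells and do not show what LPS induced.

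IRFs bind short sequences with repeated GAAA cores, found in the interferon-stimulated response element (ISRE) of many immune genes. In macrophages that sense LPS, TLR4 signals through the adaptor TRIF to kinases that phosphorylate IRF3 and IRF7, which then induce interferon beta, and through MyD88, which engages IRF5. Interferon acts back on the cells through its receptor and the complex ISGF3, in which IRF9 binds DNA. IRF1 is induced by interferon gamma, IRF2 competes with IRF1 for DNA, and IRF8 and IRF4 bind composite sites with partners such as PU.1 and direct the development of myeloid cells and lymphocytes.

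Library totals ran from 17453778 to 19648467 counts. Dusp6, Spry2 and Egr1, genes that ERK signalling induces, had 2, 19 and 5 counts in the trametinib libraries together and 603, 176 and 408 in the vehicle libraries. Among the vehicle libraries, replicate 3 stood apart. It held 39, 26 and 67 counts of these 3 genes, against 258, 72 and 163 in vehicle replicate 1 and 306, 78 and 178 in vehicle replicate 2. Its score on principal component 1 (68.8% of the variance) was 16.2, between the trametinib libraries at −35.5 to −26.4 and vehicle replicates 1 and 2 at 39.3 and 38.1. The 10 macrophage markers summed to 14469 to 16326 CPM (counts scaled to a common library size) with trametinib and 15582 to 17607 CPM with vehicle. Of these, Mertk rose (log2 fold change 1.15, adjusted p 0.000412) and Adgre1 fell (−0.91, adjusted p 0.000502). Itgam fell to 32.9, 36.0 and 23.6 CPM with trametinib, against 83.2, 84.0 and 40.1 CPM with vehicle (adjusted p 0.0437), a call lost with no filter, in limma-voom and without any single library other than vehicle replicate 3. Markers of dendritic cells, B cells and plasma cells are given beside Irf4. Which animal gave which library is not in the labels, so all p-values reflect the spread among these libraries, which may be partly technical. In such bulk samples, fewer cells that express a gene and less of its RNA per cell cannot be told apart.

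Irf8, Irf1, Irf2 and Irf5 rose with trametinib, with log2 fold changes (trametinib over vehicle) of 0.59, 0.51, 0.34 and 0.32. Irf7, Irf9, Irf3 and Irf4 did not pass the test, with log2 fold changes of 0.20, 0.11, −0.07 and −0.46. Thus 4 of 8 members rose (50%), against 15.8% of the 11286 genes tested, and 0 fell, against 18.4%. Genes changed in either direction made up 34.3% of all genes tested. The test was edgeR's quasi-likelihood test of group only, without the replicate numbers, with Benjamini-Hochberg adjustment over all genes, at a threshold of 0.05. It placed 0 members lower at an unadjusted p under 0.05 too, and DESeq2 and limma-voom also called 4 members higher and 0 lower. The median log2 fold change of the 8 members was 0.26, against −0.01 over all genes tested. The trametinib and vehicle libraries did not overlap in 5 members, the 4 that rose and Irf9, all higher with trametinib, as was so for 23.4% of all genes tested. A further 25.9% of all genes did not overlap and were lower, which makes 49.3% in either direction. Without trametinib replicate 1 only Irf1 and Irf8 passed, and without vehicle replicate 1 Irf5 did not pass. Without vehicle replicate 3 the same 4 members passed.

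**Figure D1:**
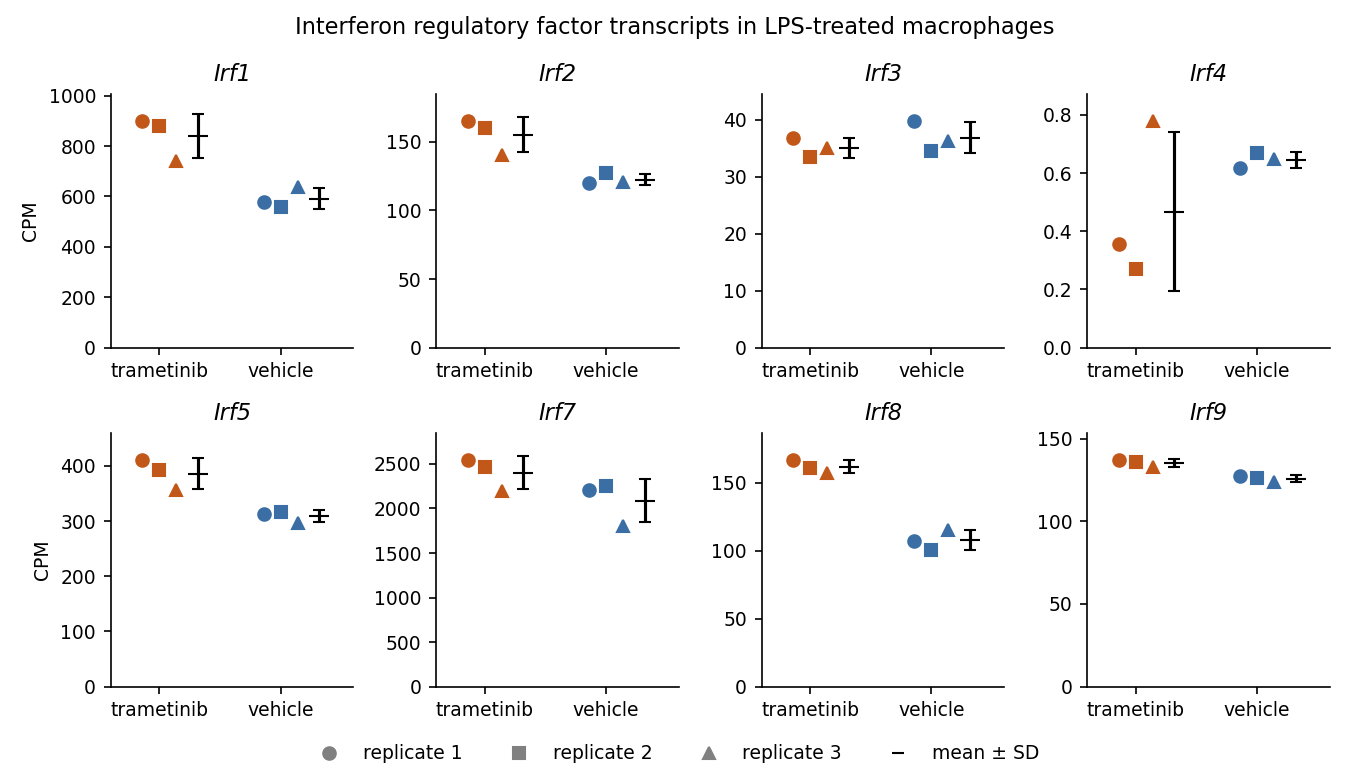
CPM of each IRF transcript (linear axes from 0, a separate scale for each gene) in the 3 trametinib and the 3 vehicle libraries, with 1 point per library, marker shape for the replicate number and bars for mean ± SD. The trametinib points of Irf1, Irf2, Irf5, Irf8 and Irf9 all lie above the vehicle points, while those of Irf3, Irf4 and Irf7 overlap with them.

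**Figure D2:**
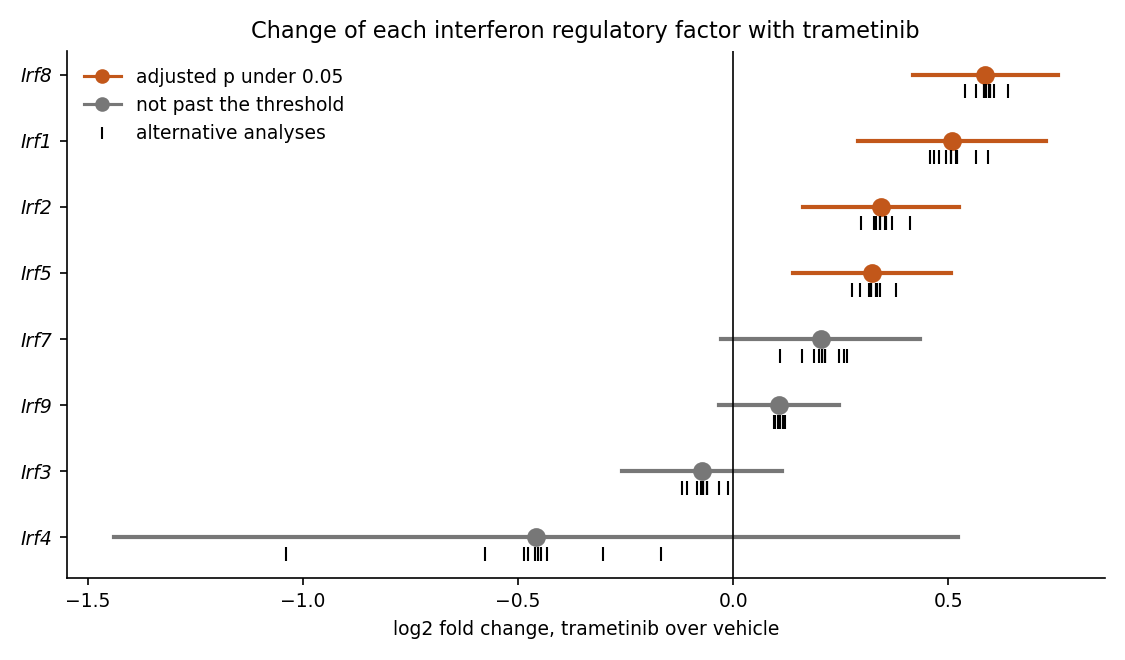
Log2 fold change (trametinib over vehicle) of each IRF gene, with its 95% interval as a line and the values under the alternative analyses as ticks. The intervals of Irf8, Irf1, Irf2 and Irf5 lie above 0, and those of Irf7, Irf9, Irf3 and Irf4 include 0.

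A search for 6 binding motifs found matches in a promoter window of Irf8, Irf1, Irf2 and Irf5, which are also the 4 members that rose. This overlap was found with the members' values known and was not tested. RefSeq (GRCm38.p6) gave 11 windows for the 8 genes, and the 250 bases before each start were read on both strands. The motifs were chosen with the members' values known: the ISRE core (GAAA, any 2 bases and GAAA again), the STAT site GAS as TTCNNNGAA, the consensus of NF-kappaB sites, the AP-1 site TGANTCA, the ETS site CCGGAAGT and the EGR site GCGNGGGCG. Over all 32851 RefSeq windows they were present in 2.98%, 7.02%, 7.25%, 6.75%, 2.88% and 4.70%. Of the 11 windows here, 4 held a match. The share of all windows with any of the 6 motifs was not computed, so an excess was not tested. A link between the matches and the rise was not tested either, so their overlap in the same 4 members is a description only. Capitals mark the matches within 100 bases of each of the 4 promoters, on the plus strand, 5′ to 3′.
Irf8 (chr8:120736158-120736257): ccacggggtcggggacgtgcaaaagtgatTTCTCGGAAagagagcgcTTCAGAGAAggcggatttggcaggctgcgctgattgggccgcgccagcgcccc
Irf1 (chr11:53769914-53770013): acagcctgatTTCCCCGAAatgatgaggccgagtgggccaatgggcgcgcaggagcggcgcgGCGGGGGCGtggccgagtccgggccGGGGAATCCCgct
Irf2 (chr8:46739495-46739594): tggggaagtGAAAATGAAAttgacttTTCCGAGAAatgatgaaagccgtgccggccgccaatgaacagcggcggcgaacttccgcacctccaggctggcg
Irf5 (chr6:29526375-29526474): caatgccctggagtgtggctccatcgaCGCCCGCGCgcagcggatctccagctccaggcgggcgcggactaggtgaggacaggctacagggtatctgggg
The Irf8 stretch held a pair of GAS matches, TTCTCGGAA and TTCAGAGAA, starting at −171 and −153 from the RefSeq start. Irf1 held the GAS match TTCCCCGAA at −90, the EGR match GCGGGGGCG at −38 and an NF-kappaB match, GGGGAATCCC, at −13. In Irf2 the ISRE match GAAAATGAAA at −241 was followed by the GAS match TTCCGAGAA at −224, and an NF-kappaB match, GGGGATTTCC, lay at −17, outside the printed stretch. Irf5 held 1 EGR match, on the minus strand, which reads CGCCCGCGC on the plus strand at −223. None of these matches overlapped another. The other 7 windows, which are those of Irf3, Irf4, Irf7 and Irf9 and the second windows of Irf1 and Irf8, held 0 matches, and AP-1 and ETS letters were in 0 of the 11 windows. Both windows of Irf9 and the second windows of Irf1 and Irf8 lie past the gene start in GENCODE. The bases before the GENCODE start of Irf9 were therefore not searched. A match says that the letters are present, not that a factor was bound, and binding was not measured.

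Irf3 (ENSMUSG00000003184, mm10 chromosome 7, 44997648 to 45002848, plus strand) encodes the factor that the TRIF pathway activates directly, from protein already present in the cell. It had 36.8, 33.4 and 35.0 CPM in trametinib replicates 1, 2 and 3, against 39.8, 34.4 and 36.3 CPM in vehicle replicates 1, 2 and 3. The groups overlapped, and no library stood out. The log2 fold change was −0.07 (SE 0.08, edgeR adjusted p 0.525) with a 95% interval of −0.26 to 0.11.

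Irf7 (ENSMUSG00000025498, mm10 chromosome 7, 141262706 to 141266481, minus strand) encodes the interferon-inducible relative of IRF3, which amplifies interferon production. It had 2547, 2466 and 2197 CPM with trametinib, against 2209, 2248 and 1808 CPM with vehicle. The groups overlapped, because trametinib replicate 3 lay below vehicle replicates 1 and 2, and replicate 3 was the lowest library in each group. Irf7 averaged 2403 ± 183.5 CPM with trametinib and 2088 ± 243.8 CPM with vehicle (SD, n = 3 each). Its log2 fold change was 0.20 (SE 0.10) with an edgeR adjusted p of 0.156. With the replicate number as a block the log2 fold change was 0.21 and the adjusted p 0.0165, which brings the members called to 5, against 20.5% of all genes called higher and 42.9% called in either direction in that fit. Within same-numbered libraries Irf7 was higher with trametinib in 3 of 3 pairs, by 0.21, 0.13 and 0.28 on the log2 scale.

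Irf5 (ENSMUSG00000029771, mm10 chromosome 6, 29526625 to 29541871, plus strand) encodes a MyD88-bound factor that drives inflammatory cytokine genes. It had 411, 392 and 356 CPM with trametinib and 312, 317 and 297 CPM with vehicle. Every trametinib library lay above every vehicle library. The mean was 386 ± 28.1 CPM with trametinib and 309 ± 10.5 CPM with vehicle, a log2 fold change of 0.32 (SE 0.08, edgeR adjusted p 0.0153, range over the alternatives 0.00148 to 0.0753). The adjusted p was 0.0753 without trametinib replicate 1 and 0.0531 without vehicle replicate 1. Irf5 shares 411 exon bases, 14.1% of its exon length, with Tnpo3 on the opposite strand, and the counting's use of strand is not given in the sources used here. Tnpo3, an import receptor gene named for this overlap, had 53.0 ± 2.92 CPM with trametinib and 60.7 ± 2.86 CPM with vehicle, the opposite direction to Irf5 (adjusted p 0.0608). Its adjusted p was 0.0251 under the replicate block, and it also passed when trametinib replicate 3 was left out.

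Genes that activate these 3 factors went in both directions. Of 17 tested, 5 rose and 1 fell, against 15.8% and 18.4% of all genes tested, and their median log2 fold change was 0.13. Ticam1, which encodes TRIF, rose to 68.3 ± 4.98 CPM with trametinib, against 47.4 ± 2.32 CPM with vehicle (1.44-fold, edgeR adjusted p 0.00134). Mavs, the mitochondrial adaptor of RNA sensors, had 52.8 ± 3.20 CPM with trametinib and 40.1 ± 1.07 CPM with vehicle (1.32-fold, adjusted p 0.00355), and Ifih1, the RNA sensor MDA5, rose 1.30-fold (adjusted p 0.0139). Ikbke, a kinase of IRF3 and IRF7, fell to 359 ± 21.6 CPM with trametinib, against 454 ± 16.4 CPM with vehicle (log2 fold change −0.34, adjusted p 0.0102). Its sister kinase Tbk1 had a log2 fold change of 0.12 and an adjusted p of 0.234. Ifih1 did not pass without trametinib replicate 1, trametinib replicate 2 or vehicle replicate 1, and Ikbke did not pass without vehicle replicate 1. The risers numbered 3, 3 and 2 without trametinib replicate 1, trametinib replicate 2 and vehicle replicate 1. Genes that fell numbered 2, 0 and 3 without trametinib replicate 3, vehicle replicate 1 and vehicle replicate 3, and 3 with the replicate block.

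Of 9 known targets of IRF3, 5 rose and 0 fell, against 15.8% and 18.4% of all genes tested. The median log2 fold change of the 9 was 0.38. At an unadjusted p under 0.05, edgeR placed 6 higher and 0 lower, while DESeq2 called 6 higher and 0 lower. Ifit1, an antiviral protein that binds foreign RNA, had 2082 ± 226 CPM with trametinib and 1561 ± 45.4 CPM with vehicle (1.33-fold, edgeR adjusted p 0.00787). Ifit2, from the same gene cluster, had 6796 ± 903 CPM with trametinib and 4952 ± 299 CPM with vehicle (1.37-fold, adjusted p 0.00954). Ccl5, a T cell chemokine gene, rose 1.30-fold (adjusted p 0.00984). Ifnb1, the gene of interferon beta, had 6.83 ± 0.614 CPM with trametinib and 3.37 ± 1.53 CPM with vehicle (2.02-fold, adjusted p 0.0229). Of these 4, Ifit1 passed without every single library, Ifit2 lost its call without trametinib replicate 2, Ccl5 without trametinib replicates 1 or 2, and Ifnb1 without any library other than vehicle replicate 3. Risers among the 9 numbered 2, 1, 3 and 3 without trametinib replicates 1 and 2 and vehicle replicates 1 and 2, and 8 with the replicate block.

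Known targets of IRF5 that passed the test fell, while Irf5 itself rose. Of 4 tested, 2 fell and 0 rose, against 18.4% and 15.8% of all genes tested, with a median log2 fold change of −1.08. At an unadjusted p under 0.05 edgeR placed the same number, 2 lower and 0 higher, as DESeq2 did after adjustment. Tnf fell to 417 ± 17.4 CPM with trametinib, against 1054 ± 144 CPM with vehicle, and Il12a, the p35 subunit gene of interleukin 12, to 3.65 ± 0.989 CPM with trametinib, against 11.1 ± 2.91 CPM with vehicle (log2 fold changes −1.34 and −1.61, adjusted p 0.000178 and 0.00219). Il12b, the p40 subunit gene, had a log2 fold change of −0.83 and an adjusted p of 0.123, and Il6 of −0.39 and 0.641. Without vehicle replicate 3 the list had 3 that fell, Il12b included, and with the replicate block 3, Il6 included.

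Irf9 (ENSMUSG00000002325, mm10 chromosome 14, 55603571 to 55610030, plus strand) encodes the DNA-binding subunit of ISGF3. It had 137, 136 and 133 CPM with trametinib, against 127, 126 and 124 CPM with vehicle. The groups did not overlap, yet they lay close together, and the within-pair differences were 0.11, 0.11 and 0.10 on the log2 scale. Its log2 fold change was 0.11 (SE 0.06) with a 95% interval of −0.03 to 0.25 and an edgeR adjusted p of 0.215. Irf9 shares 123 exon bases with Rnf31 on the same strand, 2.28% of its exon length. Rnf31, a ubiquitin ligase gene named for this overlap, rose to 226 ± 10.9 CPM with trametinib, against 186 ± 8.65 CPM with vehicle (log2 fold change 0.28, adjusted p 0.0221), a call lost without trametinib replicate 1 or vehicle replicate 2.

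Stat2, a partner of IRF9 in ISGF3, rose to 1150.4 ± 62.9 CPM with trametinib, against 962 ± 40.2 CPM with vehicle (1.20-fold, edgeR adjusted p 0.0281). It did not pass without trametinib replicate 1 or 2 or without vehicle replicate 1 or 2. Of 15 known ISGF3 targets tested, which include Irf7, Irf9 and Stat2 themselves, 6 rose and 0 fell, with a median log2 fold change of 0.21. Over all genes tested, 15.8% rose and 18.4% fell. All 15 ISGF3 targets had log2 fold changes above 0, and 0 were lower at an unadjusted p under 0.05 in edgeR. For this list DESeq2 and limma-voom also called 6 higher and 0 lower. Rsad2, the antiviral enzyme viperin, rose 1.55-fold (adjusted p 0.0148) and Isg15, a ubiquitin-like modifier, 1.27-fold (adjusted p 0.0342). Risers numbered 0 without trametinib replicate 1, where 5 had an unadjusted p under 0.05, and 1, 2, 2 and 3 without trametinib replicate 2 and vehicle replicates 1, 2 and 3. With the replicate block 11 rose. Values of Ifit, Oas, Gbp and other close paralogs are less certain, because the handling of reads that map to several places is not given in the sources used here.

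Interferon receptor genes went in both directions. Of 8 tested genes of interferons, their receptors and the attached kinases, 3 rose and 2 fell, with a median log2 fold change of 0.15. Over all genes tested, 15.8% rose and 18.4% fell. Ifngr1, the ligand-binding chain of the interferon gamma receptor, fell to 32.2 ± 1.89 CPM with trametinib, against 64.5 ± 6.95 CPM with vehicle (edgeR adjusted p 0.000280). Ifnar1, a chain of the type I interferon receptor, had 160.2 ± 12.7 CPM with trametinib and 234 ± 11.9 CPM with vehicle (log2 fold change −0.55, adjusted p 0.00186). Its partner chain gene Ifnar2 had a log2 fold change of 0.18 and an adjusted p of 0.0854, and of 0.0357 with the replicate block. Ifngr2, the partner chain of IFNGR1, had 356 ± 13.6 CPM with trametinib and 286 ± 5.96 CPM with vehicle (log2 fold change 0.31, adjusted p 0.0100), and lost its call without trametinib replicate 1 or vehicle replicate 1. Tyk2, the kinase bound to IFNAR1, rose to 459 ± 18.8 CPM with trametinib, against 294 ± 42.6 CPM with vehicle (1.56-fold, adjusted p 0.00240). Risers numbered 1 without trametinib replicate 1 and 1 without vehicle replicate 1. Ifng was not tested, with 0 counts with trametinib and 1 with vehicle.

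Irf1 (ENSMUSG00000018899, mm10 chromosome 11, 53770014 to 53778374, plus strand) encodes an activator of antimicrobial and antigen-processing genes. It had 900.4, 879 and 742 CPM with trametinib, against 579, 557 and 637 CPM with vehicle. Every trametinib library was above every vehicle library, and the replicate 3 libraries lay closest to the other group. The mean was 840.2 ± 86.1 CPM with trametinib and 591 ± 41.1 CPM with vehicle, a log2 fold change of 0.51 (SE 0.10) and an edgeR adjusted p of 0.00427. The 95% interval of the fold ran from 1.22 to 1.65, and the call stood under every alternative (adjusted p 1.28e-05 to 0.0282). Within same-numbered libraries the log2 difference was 0.64, 0.66 and 0.22.

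Irf2 (ENSMUSG00000031627, mm10 chromosome 8, 46739732 to 46847458, plus strand) encodes the antagonist of IRF1 on shared sites. It had 165, 159.9 and 141 CPM with trametinib, against 119.9, 127 and 121 CPM with vehicle. The groups did not overlap. The mean was 155 ± 13.0 CPM with trametinib and 122 ± 3.89 CPM with vehicle, a log2 fold change of 0.34 (SE 0.08, edgeR adjusted p 0.0107, range over the alternatives 0.00170 to 0.0553). The call was lost without trametinib replicate 1, the highest Irf2 library. Activator and antagonist thus were both higher, and the log2 ratio of Irf1 to Irf2 CPM was 2.43 ± 0.03 with trametinib and 2.27 ± 0.13 with vehicle, a difference of 0.17 (exact permutation test, two-sided, p 0.2, adjusted over 4 ratios 0.267). With 3 libraries against 3 the smallest p such a test can give is 0.1.

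**Figure D3:**
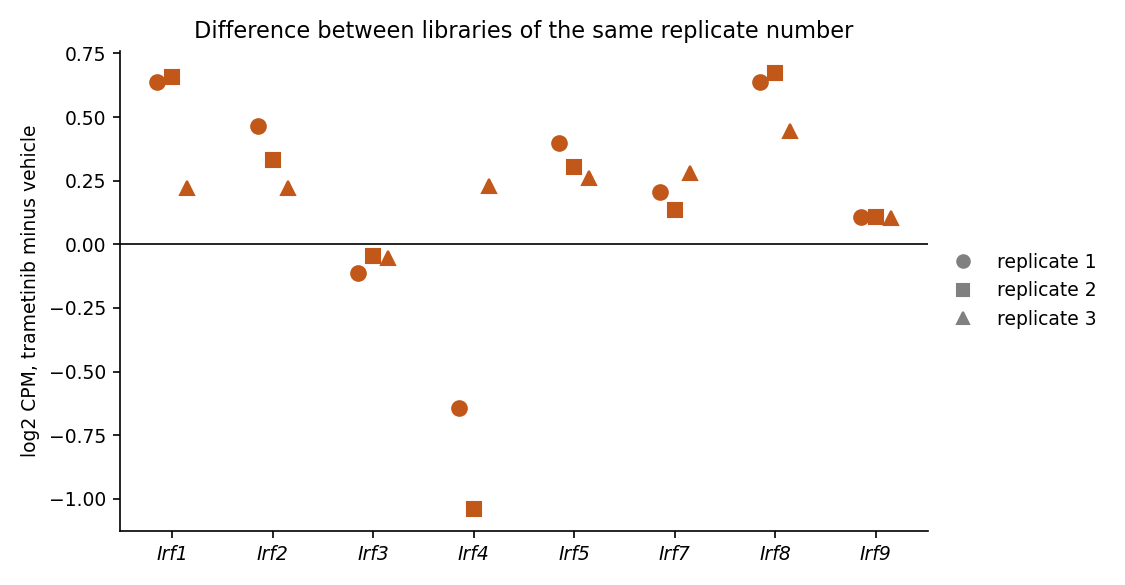
Log2 CPM difference (trametinib minus vehicle) between libraries of the same replicate number for each IRF gene, with marker shape for the number. Irf1, Irf2, Irf5, Irf7, Irf8 and Irf9 lie above 0 in 3 of 3 pairs, Irf3 lies below 0 in each, and Irf4 ranges from −1.04 to 0.23.

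Known targets of IRF1 that passed the test rose. Of 18 tested, 12 rose and 0 fell, against 15.8% and 18.4% of all genes tested, with a median log2 fold change of 0.38. At an unadjusted p under 0.05 edgeR placed 14 higher and 0 lower, and DESeq2 called 12 higher and 0 lower. Nos2, which encodes inducible nitric oxide synthase, had 2312 ± 544 CPM with trametinib and 802 ± 77.1 CPM with vehicle (2.88-fold, edgeR adjusted p 0.000965). Il15, a cytokine gene for NK cells and memory T cells, had 222 ± 34.0 CPM with trametinib and 119 ± 4.99 CPM with vehicle (1.86-fold, adjusted p 0.000732), and its receptor chain gene Il15ra rose 1.69-fold (adjusted p 0.00108). These 3 passed without every single library. Risers numbered 7 without trametinib replicate 1, and with the replicate block 1 gene, the cytokine subunit gene Il27, fell.

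Irf8 (ENSMUSG00000041515, mm10 chromosome 8, 120736358 to 120756694, plus strand) encodes the factor that directs progenitors to monocytes and macrophages, and it was the member with the largest fold change. It had 167, 161 and 157 CPM with trametinib, against 107, 101 and 116 CPM with vehicle. The trametinib libraries lay close together and well above all vehicle libraries. The mean was 162 ± 4.80 CPM with trametinib and 108 ± 7.45 CPM with vehicle, a log2 fold change of 0.59 (SE 0.07) and an edgeR adjusted p of 0.000755. The 95% interval of the fold was 1.34 to 1.69, the call stood under every alternative (adjusted p 2.22e-09 to 0.00729), and 90.4% of all genes tested had a lower log2 fold change.

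Irf4 (ENSMUSG00000021356, mm10 chromosome 13, 30749226 to 30766976, plus strand) encodes a relative of IRF8 that supports alternatively activated macrophages, dendritic cells and plasma cells. It had 6, 5 and 14 counts with trametinib, against 11, 12 and 12 counts with vehicle, or 0.355, 0.269 and 0.780 CPM with trametinib, against 0.617, 0.670 and 0.648 CPM with vehicle. Trametinib replicate 3 lay above all vehicle libraries and the other trametinib libraries below them. The log2 fold change was −0.46 (SE 0.43, edgeR adjusted p 0.445, 95% interval −1.44 to 0.52), so a difference was not detected at these low counts. It was −1.04 without trametinib replicate 3 (adjusted p 0.102) and −0.17 without trametinib replicate 2. The log2 ratio of Irf8 to Irf4 was 8.23 ± 0.67 with trametinib and 7.15 ± 0.13 with vehicle, a difference of 1.07 (exact permutation p 0.1, the smallest possible, adjusted 0.267), and that of Irf4 to Irf5, which compete for MyD88, was −9.48 ± 0.73 with trametinib and −8.67 ± 0.07 with vehicle (p 0.3, adjusted 0.3). The dendritic cell markers summed to 14.1 to 25.3 CPM with trametinib and 2.75 to 8.97 CPM with vehicle. With trametinib, Ccr7 made up most of that sum. Of the 8 dendritic cell markers 2 had enough counts to be tested. Xcr1 had an adjusted p of 0.254. Ccr7 had 10.8, 10.3 and 22.5 CPM with trametinib, against 0.673, 2.12 and 7.08 CPM with vehicle, without overlap (log2 fold change 2.13, adjusted p 0.0995). Its adjusted p was 0.0165 under the replicate block, and it also passed when vehicle replicate 3 was left out, with a log2 fold change of 3.37. Flt3, another of these markers, reached at most 0.177 CPM. Of 8 B cell and plasma cell markers 2 had enough counts, and 1 of them, Sdc1, rose to 650.0 ± 79.2 CPM with trametinib, against 365 ± 37.0 CPM with vehicle (adjusted p 0.000983). The other tested marker of this list was not called, and its log2 fold change was not above 0. The list summed to 643 to 793 CPM with trametinib and 413 to 501 CPM with vehicle, and Sdc1 made up most of it. The part of such cells in the Irf4 and Irf8 values was not tested.

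DNA-binding partners had calls in both directions. Of 13 tested, 3 rose (23.1%) and 4 fell (30.8%), against 15.8% and 18.4% of all genes tested. Their median log2 fold change was 0.00. Spi1, which encodes PU.1, had 439 ± 35.5 CPM with trametinib and 445 ± 45.8 CPM with vehicle (log2 fold change −0.02, edgeR adjusted p 0.901). Its relative Spib had 47 counts in the trametinib libraries together and 1 in the vehicle libraries (adjusted p 0.00149). The ratio was 47.7, with an exact 95% interval of 8.15 to 1923 that covers counting error only. Spib, 1 of the 3 that rose, passed the count filter only through its trametinib counts, on which the call also rests. With at least 1 CPM in 3 libraries, 11 partners were tested and 2 rose. Batf, the AP-1 partner of IRF4 and IRF8, fell to 42.3 ± 2.34 CPM with trametinib, against 63.4 ± 5.81 CPM with vehicle (log2 fold change −0.58, adjusted p 0.00134). Jun, which pairs with BATF in these complexes, fell to 12.2 ± 1.03 CPM with trametinib, against 36.6 ± 9.74 CPM with vehicle (log2 fold change −1.59, adjusted p 0.00143). Ikzf1, the Ikaros zinc-finger gene, had 142 ± 8.96 CPM with trametinib and 193 ± 6.93 CPM with vehicle (log2 fold change −0.44, adjusted p 0.00292). Risers numbered 1 without trametinib replicate 1 and 1 without trametinib replicate 2.

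Known targets of IRF8 went both ways. Of 14 tested, 4 rose (28.6%) and 4 fell (28.6%), against 15.8% and 18.4% of all genes tested. Their median log2 fold change was 0.09. Il18, the gene of an inflammasome-processed cytokine, had 51.5 ± 6.93 CPM with trametinib and 31.7 ± 0.0919 CPM with vehicle (1.62-fold, edgeR adjusted p 0.00126). Naip5 and Naip2, sensors of bacterial flagellin and secretion systems and close paralogs, rose 1.30-fold and 1.31-fold (adjusted p 0.00195 and 0.00586). Nf1, a GTPase activator that turns off RAS, fell to 29.2 ± 5.38 CPM with trametinib, against 52.8 ± 2.76 CPM with vehicle (log2 fold change −0.85, adjusted p 0.00136). Genes that fell numbered 1, 2, 2, 1 and 1 without trametinib replicates 1, 2 and 3 and vehicle replicates 1 and 2.

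Known targets of IRF4 were tested in 4 of 7 cases, with a median log2 fold change of 0.47. Of these 4, 2 rose and 0 fell, against 15.8% and 18.4% of all genes tested. At an unadjusted p under 0.05 edgeR placed 2 higher and 0 lower, and DESeq2 and limma-voom each called 2 higher and 0 lower. Pdcd1lg2, which encodes the checkpoint ligand PD-L2, had 2.87 ± 0.418 CPM with trametinib and 1.72 ± 0.174 CPM with vehicle (1.67-fold, edgeR adjusted p 0.0212), and Prdm1, the repressor Blimp-1, rose 1.22-fold (adjusted p 0.0432). The chemokine gene Ccl22 had a log2 fold change of 0.64 with an adjusted p of 0.516, and of 0.73 with 0.00395 with the replicate block. The lectin gene Chil3 had a log2 fold change of 0.10 with an adjusted p of 0.893. Risers numbered 0 without trametinib replicate 1, trametinib replicate 2 or vehicle replicate 2, and 1 without trametinib replicate 3 or vehicle replicate 1.

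Corepressors, translational repressors and degraders of IRFs had calls in both directions. Of 9 tested, 1 rose and 1 fell, against 15.8% and 18.4% of all genes tested, with a median log2 fold change of −0.13. Eif4ebp1, whose product restrains translation of Irf7 mRNA in mouse, had 20.7 ± 1.05 CPM with trametinib and 30.6 ± 5.67 CPM with vehicle (log2 fold change −0.56, edgeR adjusted p 0.0118, and 0.0579 without trametinib replicate 1). Trim21, a ubiquitin ligase of several IRFs, rose 1.20-fold (adjusted p 0.0306), a call lost without trametinib replicates 1 or 2 or vehicle replicates 1 or 2. The IRF2-binding corepressor genes Irf2bp2 and Irf2bpl had log2 fold changes of −0.19 and −0.71 with adjusted p of 0.0584 and 0.122. Genes that fell numbered 4 without vehicle replicate 3, 0 without trametinib replicate 1, and 2 in DESeq2.

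**Figure D4:**
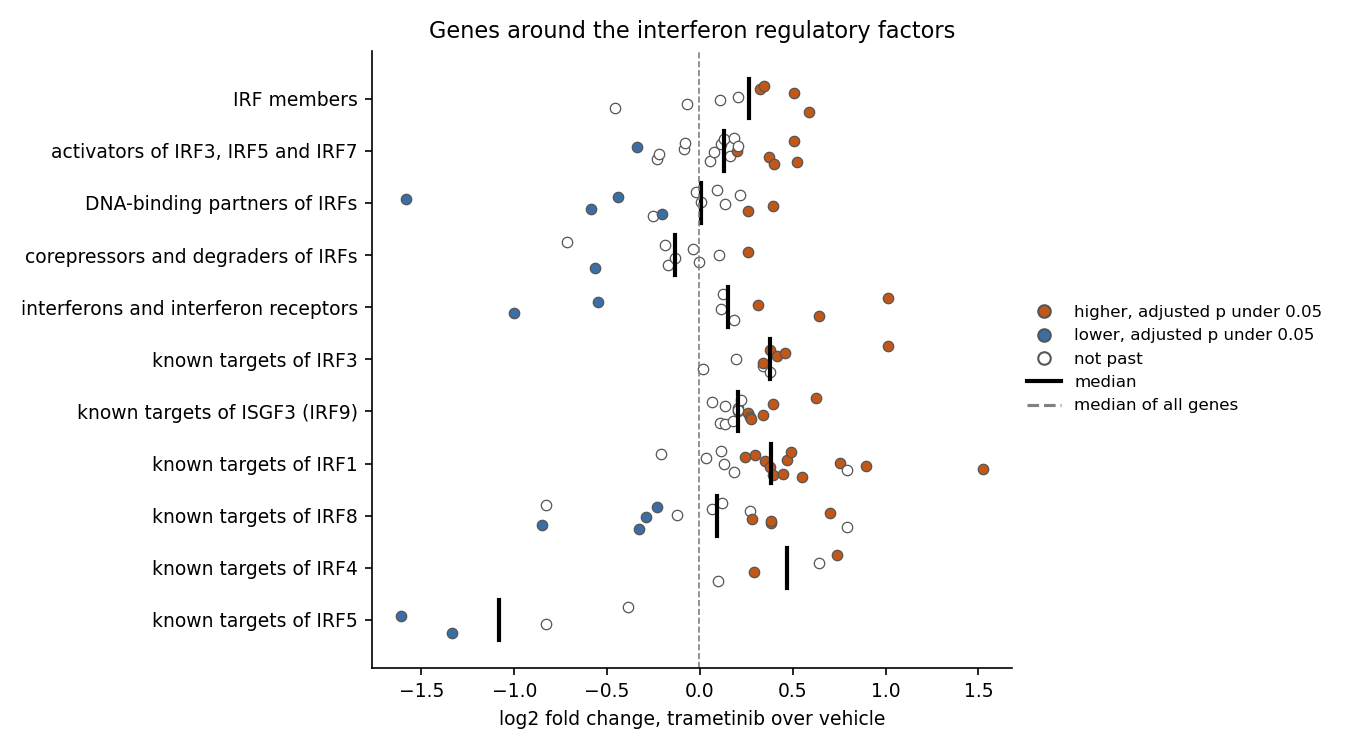
Log2 fold change (trametinib over vehicle) of each tested gene of the IRF family and of the lists around it, filled where the adjusted p was under 0.05, with a bar at each list's median and a dashed line at the median of all genes tested. Spib is left out of the points, since it had 1 count in the vehicle libraries. The IRF1 and IRF3 targets have medians of 0.38 and the IRF5 targets of −1.08.

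Levels of different members can be compared only per length, here as CPM per kilobase of exon. Irf7 was the most abundant IRF transcript, at 636 ± 48.6 CPM per kilobase with trametinib and 553 ± 64.6 with vehicle. Irf1 followed with 211 ± 21.7 CPM per kilobase with trametinib and 149 ± 10.3 with vehicle, and Irf5 with 133 ± 9.69 with trametinib and 106 ± 3.63 with vehicle. The next 3 lay close together. Irf9 had 25.1 ± 0.420 CPM per kilobase with trametinib and 23.4 ± 0.358 with vehicle, and Irf8 had 22.9 ± 0.680 with trametinib and 15.3 ± 1.06 with vehicle. Irf2 had 22.4, 21.6 and 19.0 CPM per kilobase in the trametinib libraries and 16.2, 17.2 and 16.3 in the vehicle libraries. Irf3 had 10.2 ± 0.495 CPM per kilobase with trametinib and 10.7 ± 0.797 with vehicle, and Irf4 had 0.0954 ± 0.0558 with trametinib and 0.132 ± 0.0054 with vehicle. Irf8 and Irf2 were the only neighbours in this order whose libraries overlapped, in each group. Irf8 stood above Irf2 with trametinib and below it with vehicle. With the longest transcript as the length, the order of these 3 with trametinib was Irf8, Irf2 and Irf9 with no overlap, and with vehicle Irf9, Irf8 and Irf2 with overlap between neighbours. The place of these 3 thus depends on the length used.

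The summed level of the 8 members was 1060.1 ± 82.6 CPM per kilobase with trametinib and 874 ± 57.7 with vehicle, a ratio of 1.21. Every trametinib library exceeded every vehicle library, which gives the smallest exact permutation p possible, 0.1. Irf7 supplied 60.0 ± 0.1% of the sum with trametinib and 63.1 ± 3.35% with vehicle (exact p 0.4). Irf1 supplied 19.9 ± 0.545% with trametinib and 17.1 ± 2.38% with vehicle (exact p 0.2). With the longest transcript as the length, Irf7 supplied 51.3% with trametinib and 54.9% with vehicle, and Irf1 27.2% and 23.7%. The size of a share thus depends on the length used. The share of Irf8 was 2.17 ± 0.121% with trametinib and 1.76 ± 0.240% with vehicle, without overlap (exact p 0.1, adjusted over 8 members 0.267). Irf3 and Irf9 took smaller shares without overlap, 0.964% and 2.38% with trametinib and 1.23% and 2.68% with vehicle (exact p 0.1 and adjusted 0.267 for each).

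**Figure D5:**
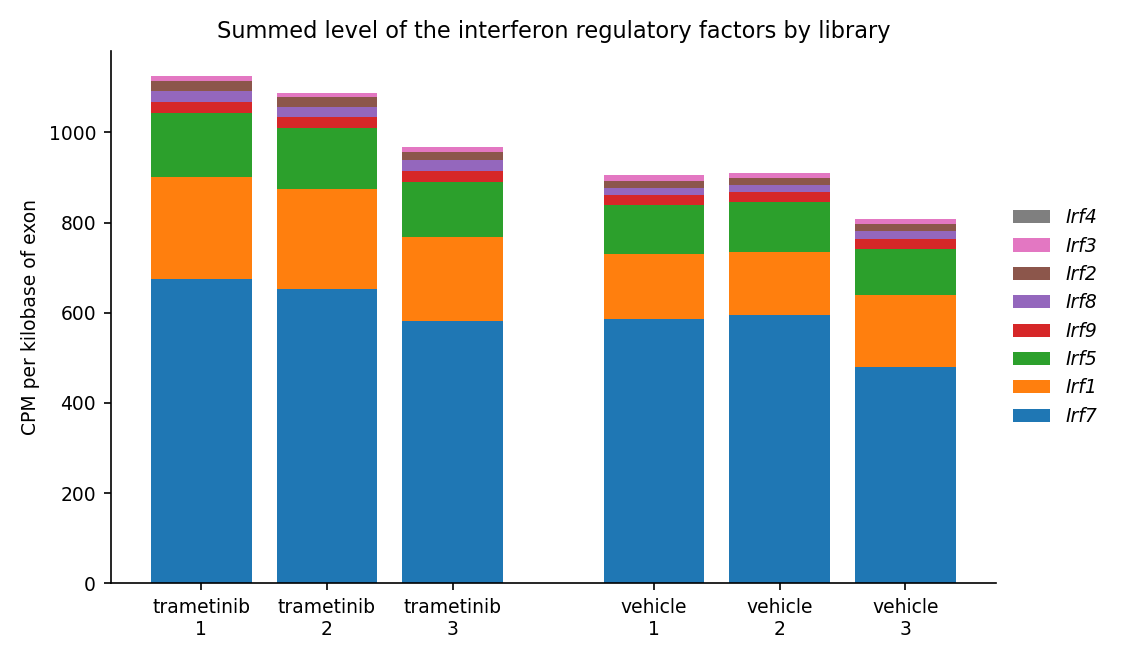
Summed level of the IRF transcripts in each library, in CPM per kilobase of exon (linear axis from 0), stacked by gene with Irf7 at the base. The trametinib libraries reach 1125, 1088 and 967, and the vehicle libraries 905, 909.7 and 807, with Irf7 as the largest part of each bar.

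Among 8561 genes with a symbol of a known gene and a mean of at least 5 CPM, those most alike to the 3 members with the largest changes among the 4 that passed the test were found by the root mean square difference of mean-centred log2 CPM over the 6 libraries. For Irf8 they were Nceh1, a cholesterol ester hydrolase gene, at 0.0288, after the chromatin-linked gene Samd1 at 0.0255 and before Tbl1xr1, a corepressor subunit gene, at 0.0295. For Irf1 they were Pi4k2b, a lipid kinase gene, at 0.0255, the cell-surface protein gene Cemip2 at 0.0300 and Ptafr, the receptor of platelet-activating factor, at 0.0351. For Irf2 the most alike gene was Irf5, at 0.0292, followed by the nuclear-body gene Sp100 at 0.0312 and the membrane-fusion gene Vamp8 at 0.0313. These are descriptions over 6 libraries that share the treatment contrast, and no test was made of them.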

How the data were processed

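The authors deposited 1 table of raw counts, reads per gene as whole numbers, for the 6 libraries. Per the submitters' processing notes, featureCounts 1.6.4 and HISAT2 2.1.0 were used with the mm10 build, and R 3.6.0 with DESeq2 1.24.0. For the annotation, the strand setting and multiply mapped reads, the choice is not given in the sources used here. Of 25354 entries, 310 were identical repeats of 205 identifiers and were removed. Positions and exon lengths came from GENCODE M21 on mm10, where 25033 of the identifiers were found, and promoter sequences from RefSeq on GRCm38.p6.

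Groups came from the labels. Genes kept by filterByExpr were tested with edgeR 4.0.16 (TMM scaling, robust quasi-likelihood fit, group only, 4 residual degrees of freedom), with p-values adjusted over all 11286 genes tested. CPM are counts over the TMM-scaled library size, given as mean ± SD. Log2 ratios used a prior count of 2, and ratios and shares were compared by two-sided exact permutation tests. The edgeR step was tested on simulated data. Library totals differed by a ratio of 1.13, and the chi-square per gene between replicates was 5.98 to 28.1, so no library was counted as a repeat of another.

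Both groups carry replicate numbers 1, 2 and 3. Deviations from group means correlated at 0.339, 0.393 and 0.285 between same-numbered libraries and at −0.223 to −0.0724 between others. Libraries with the same number thus deviated together, which leaves a pairing by number possible. With 3 mice in the study and 6 libraries, not every library can come from its own animal. The labels do not say which libraries share an animal. The main test and the exact permutation tests did not use the numbers, so their p-values hold for unpaired libraries only. The fit with the replicate block was an alternative, printed where a call changed or a count moved by more than 1.5 times.

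The members, the 10 lists around them, the 8 marker lists and the motifs were chosen with earlier results of these data known. Named are the members, up to 4 genes with the smallest p of each list, the partners needed to describe a member, the 3 genes most alike to each of 3 members, 3 ERK-induced genes, and genes that overlap a member. Some genes that this rule takes are not reported here. Sting1 and Rigi were matched by older symbols, and Tasl and Trbc2 were not used here. The alternatives were DESeq2's size factors in edgeR, no filter, at least 1 CPM in 3 libraries, DESeq2 1.42.0, limma-voom (limma 3.58.1), the replicate block, leaving out each library, and, for ratios and shares, a prior count of 0.5 and the longest transcript as length. Software was Python 3.11.15 with SciPy 1.17.1, NumPy 2.4.6, pandas 2.3.3 and matplotlib 3.10.9, and R 4.3.3.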

Additional observations from a re-analysis of the deposited data

How the results depend on the processing

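The 4 IRF genes called stayed called under both scalings, each filter, DESeq2 and limma-voom. Leaving out 1 library gave 2 to 4 of them, 2428 to 4663 changed genes in all (1068 to 2210 higher, 1360 to 2453 lower), and among the genes of the lists around the IRFs 17 to 40 higher and 9 to 20 lower, against 37 and 14 with all libraries. The low ends came without trametinib replicate 1 (2428 changed, 1068 higher, 1360 lower, 2 IRFs, 17 and 9 list genes) and, for lower list genes, also without vehicle replicate 1. Other falls by over 1.5 times were 2538 changed and 1131 higher without vehicle replicate 1, 1165 higher without vehicle replicate 2, and 21, 19 and 23 higher list genes without vehicle replicate 1, trametinib replicate 2 and vehicle replicate 2. The cause was not tested, beyond the smaller number of samples. With the replicate block 4837 genes changed, 2312 higher and 2525 lower, with 5 IRF members called and 53 list genes higher and 19 lower. Log2 fold changes reversed for Chil3, which ranged from −0.25 to 0.42 over the leave-one-out fits, and Il6, from −0.96 to 0.16. Spi1 also changed sign, with −0.10 to 0.04 over all alternatives. A tally covered 59 genes, which are the members, the list genes with the smallest p, the ERK-induced genes and the genes most alike. Of their 706 values, 643 kept direction and side of the threshold, 52 lost their call, 7 gained one and 4 changed sign. Other genes named in the text, such as Spi1, Itgam, Ccr7, Sdc1, Tnpo3 and Rnf31, were not in this tally. The 4 log2 ratios kept their direction at a prior count of 0.5. Irf4 had 5 to 14 counts per library, so its values are uncertain, and it left the fit at 1 CPM in 3 libraries.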
